A study of Homo sapiens with 100 samples.

Results

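The comparison described here adds pomalidomide to venetoclax in 6 single-cell clones of TMD8 that carry the A428D change, after 24 h of exposure. Its members are 12 of the 100 libraries of the series, chosen by their labels: the A428D clones 1 to 6 under pomalidomide with venetoclax (Pom-Ven) and the same 6 clones under venetoclax alone (Ven). TMD8 is an established human line from an activated B cell type lymphoma (diffuse large B cell). RNA was read by poly(A) sequencing of transcript 3' ends, and the replicate is the clone, with 1 culture per clone and condition. The growth and design texts place A428D at the endogenous BTK locus, whereas the sample titles attach it to another gene, SF3B1, and reads from transcript ends do not show whether the base was changed. Other groups drawn on were A428D clones under the solvent DMSO, under pomalidomide (Pom) and under venetoclax with zelebrudomide (Zele-Ven), with 6 libraries each, and 5 wild-type (WT) single-cell clones under Pom-Ven and Ven. All were exposed for 24 h, at doses that the labels do not state. The clones of each genotype were derived from the same line, so the results describe this line and not separate patients.

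Pomalidomide binds cereblon, the substrate receptor of a cullin ubiquitin ligase, and redirects it to the zinc finger transcription factors IKZF1 and IKZF3, which are then degraded as proteins. In lymphomas of this type those factors are known to hold down interferon-stimulated genes, among them the regulator IRF7, and to help maintain IRF4, on which the cells rely. Venetoclax occupies the groove of the survival protein BCL2 and frees pro-apoptotic BH3-only proteins. All cultures in the comparison received venetoclax, and how far BCL2 was occupied in them was not measured. Degradation itself acts on protein and is not read by RNA counts.

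The 12 libraries held 5813034 to 8253352 counted reads. Mitochondrial transcripts took 0.11 percentage points more of the counts under Pom-Ven (SD 0.56, n = 6 pairs; exact sign-flip test, two-sided, p = 0.72, the smallest possible being 0.0313), so this measure of RNA quality did not separate the groups beyond its spread. All 9 B cell markers averaged at least 1 CPM (counts scaled by library size), and their summed level ran from 3126 to 3854 CPM under Pom-Ven and from 3760 to 4551 CPM under Ven. Of the 9 T cell markers, 1 under Ven and 2 under Pom-Ven averaged 1 CPM or more. Of the 9 myeloid markers CD68 alone did (log2 0.83, adjusted p = 1.4e-10), and the summed myeloid level ran from 13.5 to 25.2 CPM under Ven and from 21.4 to 34.99 CPM under Pom-Ven; MPO, S100A8, S100A9 and FCGR3A had no count in either group. Single markers of other cell types moved with treatment at low levels: CD4 rose (log2 1.75) and CD5 fell (-1.02), COL1A1 rose from a mean of 2.92 to 10.2 CPM (1.82) and DCN fell (-0.88), and CDH1 fell (-0.69). Summed fibroblast and endothelial markers ran from 3.77 to 13.95 CPM under Ven and from 9.47 to 19.1 CPM under Pom-Ven, and epithelial markers from 14.8 to 48.3 CPM and from 7.40 to 54.6 CPM. Whether these markers have a part in the results was not tested.

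Adding pomalidomide to venetoclax changed 2432 of 14962 genes tested (16.3%) in A428D clones, by edgeR's quasi-likelihood test with the clone as a block and an adjusted p under 0.05. Of these, 1305 (8.72%) rose and 1127 (7.53%) fell. The larger changes were upward: 302 of the higher genes and 151 of the lower genes moved by 2-fold or more, and 69 against 15 by 4-fold or more. Among called genes that averaged at least 5 CPM and moved the same way in 6 of 6 clones, the 14 with the largest rise were IFI27, IFIT1, IFI44L, IFITM3, LDB3, LGALS3BP, IFIT3, IGLC7, P2RY6, XAF1, LINC02574, IFI6, COSMOC and RASSF4, and most of them are classic targets of type I interferon. By the same limits the 14 with the largest fall were LRRN3, SPIC, IRF8, MYH11, SSPN, LIRIL2R, IGSF11, LOXL2, HRK, COL9A3, ZNF385B, LYSMD2, SERPINB9 and ADAM8. Without the clone block the count was 1183, with 688 higher and 495 lower.

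**Figure D1:**
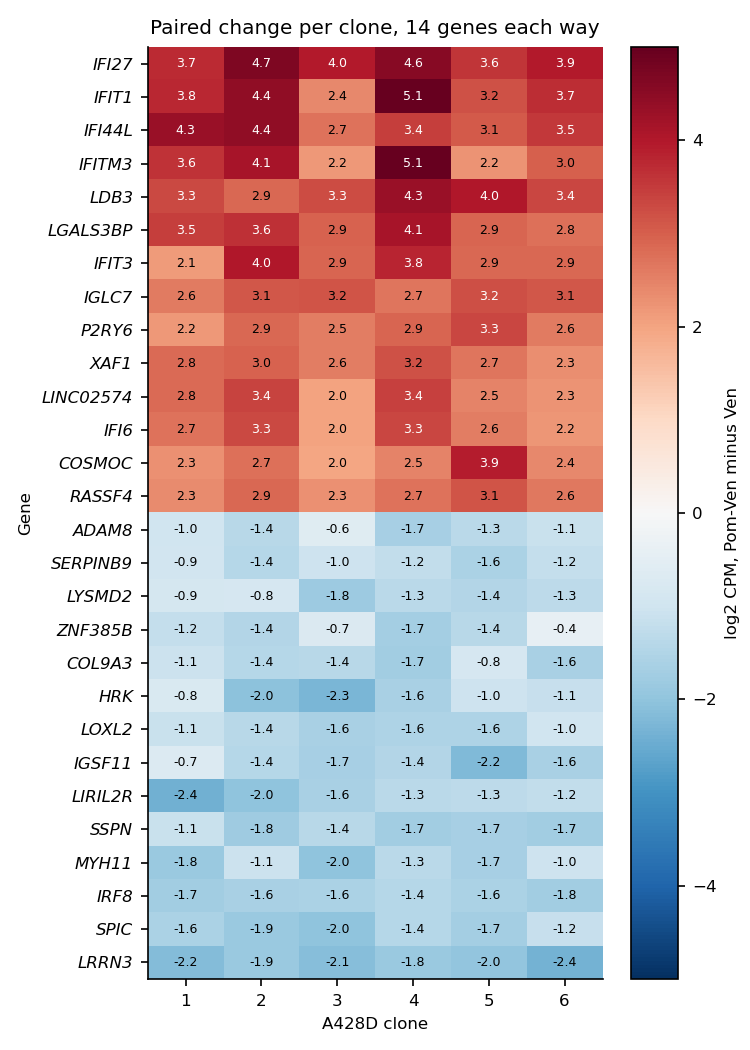
Paired change in log2 CPM (Pom-Ven minus Ven) in each of the 6 A428D clones, for the 14 genes with the largest rise and the 14 with the largest fall; each cell is 1 clone and the colour scale runs from -5 to 5. All 28 genes moved the same way in 6 of 6 clones, which was 1 condition for being listed.

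To show a sequence found at part of the genes that rose most, the promoter windows of 4 interferon-stimulated genes that hold it are given. They run from 250 bases before to 50 bases after the RefSeq transcription start on GRCh38.p14, read on the gene's own strand. MX1 is not among the 14 genes with the largest rise. IFI27 lies on chromosome 14 (chr14:94110486-94110785, plus strand), IFIT1 on chromosome 10 (chr10:89392373-89392672, plus strand), IFI6 on chromosome 1 (chr1:27672143-27672442, minus strand) and MX1 on chromosome 21 (chr21:41420308-41420607, plus strand). Capitals mark the core of the interferon-stimulated response element, which IRF proteins bind: GAAA, any 2 bases and GAAA again, searched on both strands.
IFI27: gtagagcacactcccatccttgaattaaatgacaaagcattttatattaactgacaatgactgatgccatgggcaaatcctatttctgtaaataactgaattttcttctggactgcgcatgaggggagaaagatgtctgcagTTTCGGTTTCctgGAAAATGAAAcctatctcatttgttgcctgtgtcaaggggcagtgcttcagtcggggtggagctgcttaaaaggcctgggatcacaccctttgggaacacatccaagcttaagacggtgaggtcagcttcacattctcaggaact
IFIT1: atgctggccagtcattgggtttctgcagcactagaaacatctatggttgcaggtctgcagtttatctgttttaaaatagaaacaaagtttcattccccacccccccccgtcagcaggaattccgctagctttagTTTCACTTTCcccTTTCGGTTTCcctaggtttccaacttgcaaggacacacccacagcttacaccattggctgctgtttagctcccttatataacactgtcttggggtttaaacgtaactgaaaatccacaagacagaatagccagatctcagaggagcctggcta
IFI6: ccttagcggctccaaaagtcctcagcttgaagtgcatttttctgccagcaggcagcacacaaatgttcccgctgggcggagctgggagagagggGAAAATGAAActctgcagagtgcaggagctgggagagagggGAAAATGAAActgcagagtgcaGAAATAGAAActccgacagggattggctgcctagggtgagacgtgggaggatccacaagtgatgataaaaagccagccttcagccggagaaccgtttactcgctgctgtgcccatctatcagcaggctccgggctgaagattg
MX1: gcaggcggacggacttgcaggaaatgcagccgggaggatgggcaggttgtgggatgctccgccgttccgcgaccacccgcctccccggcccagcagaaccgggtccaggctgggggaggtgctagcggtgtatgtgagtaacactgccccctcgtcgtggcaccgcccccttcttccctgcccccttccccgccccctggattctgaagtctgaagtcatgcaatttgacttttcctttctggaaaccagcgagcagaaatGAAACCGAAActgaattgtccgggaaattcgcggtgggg

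A window was found for 36 of the 45 interferon-stimulated genes tested, and 25 of those (69.4%) held this core. The same core stood in 3.65% of all 27305 windows in the table and in 3.13% of the 9993 windows of genes tested. Of the 14 genes with the largest rise, 12 had a window and 7 of these held the core. Among all genes that rose, 71 of 933 windows (7.61%) held it. Among genes that rose but were not on the interferon list, 48 of 901 windows (5.33%) held it, and among genes that fell, 25 of 836 (2.99%). In IFI27 the matches began at -108 and -95 from the start, in IFIT1 at -116 and -103, in IFI6 between -156 and -93, and in MX1 at 11. The related motif GGAA, any 2 bases and GAAA, which pairs an ETS site with an IRF site and can be bound by PU.1 or SPIB with IRF4 or IRF8, stood on either strand in 9 of the 36 interferon windows and in 2.84% of all windows, and the 2 motifs can share bases. A match describes these letters and shows no binding.

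The interferon-stimulated genes rose nearly as a group. Of 50 on the list, 45 could be tested, and 40 rose, 1 fell and 4 did not pass, beside 8.72% higher and 7.53% lower among all genes. Their median log2 change was 1.16, against 0.00 for all genes tested. In 31 of the 45 the lowest Pom-Ven library lay above the highest Ven library, against 2.71% of all genes (1.46% lay apart in the other direction). In 39 of 45 all 6 clones moved the same way, against 10.2% upward and 9.47% downward among all genes.

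IFI27, a small mitochondrial protein gene widely used as an interferon readout, ran from 0.955 to 6.76 CPM under Ven (median 3.27) and from 19.1 to 167 CPM under Pom-Ven (median 57.5). The groups did not overlap, and the log2 change was 4.26 ± 0.17 (SE; adjusted p = 6.4e-33), 19.2-fold. IFIT1, which binds foreign RNA ends, ran from 0.431 to 2.18 CPM under Ven (median 0.828) and from 9.65 to 24.6 CPM under Pom-Ven (median 17.6), a log2 change of 4.04 ± 0.21 (adjusted p = 2.1e-28). Every Pom-Ven library again lay above every Ven library. MX1, an antiviral GTPase, ran from 12.5 to 19.3 CPM (median 15.4) and from 57.1 to 155 CPM (median 66.5), a log2 change of 2.36 ± 0.13 (adjusted p = 1.8e-24) with no overlap.

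Clones differed in how high they went. Under Pom-Ven IFI27 stood at 86.5, 118 and 167 CPM in clones 1, 2 and 4, and at 19.1, 28.4 and 20.3 CPM in clones 3, 5 and 6. IFIT1 split the same way, with 22.5, 24.6 and 24.5 CPM in clones 1, 2 and 4 and 12.7, 9.65 and 12.6 CPM in clones 3, 5 and 6. The paired changes of IFI27 from Ven did not split so for clone 1. They were log2 3.72, 4.66 and 4.56 in clones 1, 2 and 4, and 3.95, 3.57 and 3.95 in clones 3, 5 and 6. For IFIT1 the paired changes were 3.75, 4.44 and 5.10, and 2.40, 3.19 and 3.70, with clone 1 only just above clone 6. The median log2 change over the 45 genes was 1.44 in clone 2 and 1.45 in clone 4, and between 0.95 and 1.00 in the other 4 clones, all above 0.

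IRF7, the transcription factor that amplifies interferon responses, ran from 8.32 to 13.5 CPM under Ven (median 9.67) and from 22.2 to 43.4 CPM under Pom-Ven (median 31.0). The groups were apart and the change was 3.02-fold (log2 1.59 ± 0.11, adjusted p = 2.5e-22). The interferon signalling genes STAT2 (log2 0.53) and IRF9 (0.43) rose. So did the RNA sensors IFIH1 (log2 0.98), RIGI (1.08) and EIF2AK2 (1.07), the ubiquitin-like modifier ISG15 (log2 1.54, from a mean of 78.8 to 235 CPM) and the 2'-5' oligoadenylate synthetases OAS2 (log2 1.72) and OAS3 (2.66). TRIM22 was the member that fell (log2 -0.30), and SP110, OAS1, PARP12 and ISG20 lay between -0.02 and 0.27 without passing. IFI6 and its neighbour LINC02574 had almost equal counts in each library and cannot be told apart, and IFITM3 has near-identical relatives, so its counts are uncertain.

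Genes of the drug's receptor and its protein targets were also measured. IKZF1 mRNA ran from 169 to 203 CPM under Ven (median 186) and from 287 to 331 CPM under Pom-Ven (median 313), without overlap, a rise of 1.67-fold (log2 0.74 ± 0.05, adjusted p = 6.9e-21). It was the member of the 5 Ikaros family genes that passed. IKZF3 had means of 147 ± 17.1 CPM and 156 ± 17.3 CPM (SD, n = 6; log2 0.09, adjusted p = 0.35) and its groups overlapped. Transcripts of CRBN, which encodes cereblon, ran from 10.2 to 17.2 CPM under Ven and from 9.65 to 12.8 CPM under Pom-Ven, log2 -0.25 ± 0.11 (adjusted p = 0.11). BTK, the kinase whose gene carries A428D by the growth text, stood at 67.2 ± 7.09 CPM and 68.6 ± 8.29 CPM (log2 0.03, adjusted p = 0.86).

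Of 23 genes of the cereblon ligase and its regulators, UBE2G1 rose (log2 0.24) and GLUL (-0.48), a cereblon substrate, and NAE1 (-0.31), of the NEDD8 activating enzyme, fell, which is 1 higher and 2 lower and close to the 8.72% and 7.53% of all genes. Of 19 tested genes for other proteins that cereblon ligands can direct to the ligase, ZNF692 (log2 0.45), ZFP91 (0.38) and FIZ1 (0.38) rose and ZNF654 (-0.40) fell. Of 15 genes reported as repressed by Ikaros, 7 could be tested: LDB3, IRF7 and HES1 rose, CD9 fell and 3 did not pass. The counts of these last 2 lists also stand beside 8.72% higher and 7.53% lower among all genes. LDB3, which encodes a PDZ and LIM domain protein of muscle, ran from 0.666 to 1.64 CPM under Ven and from 12.7 to 20.05 CPM under Pom-Ven, log2 3.77 ± 0.19 (adjusted p = 3.2e-30), with the groups well apart.

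**Figure D2:**
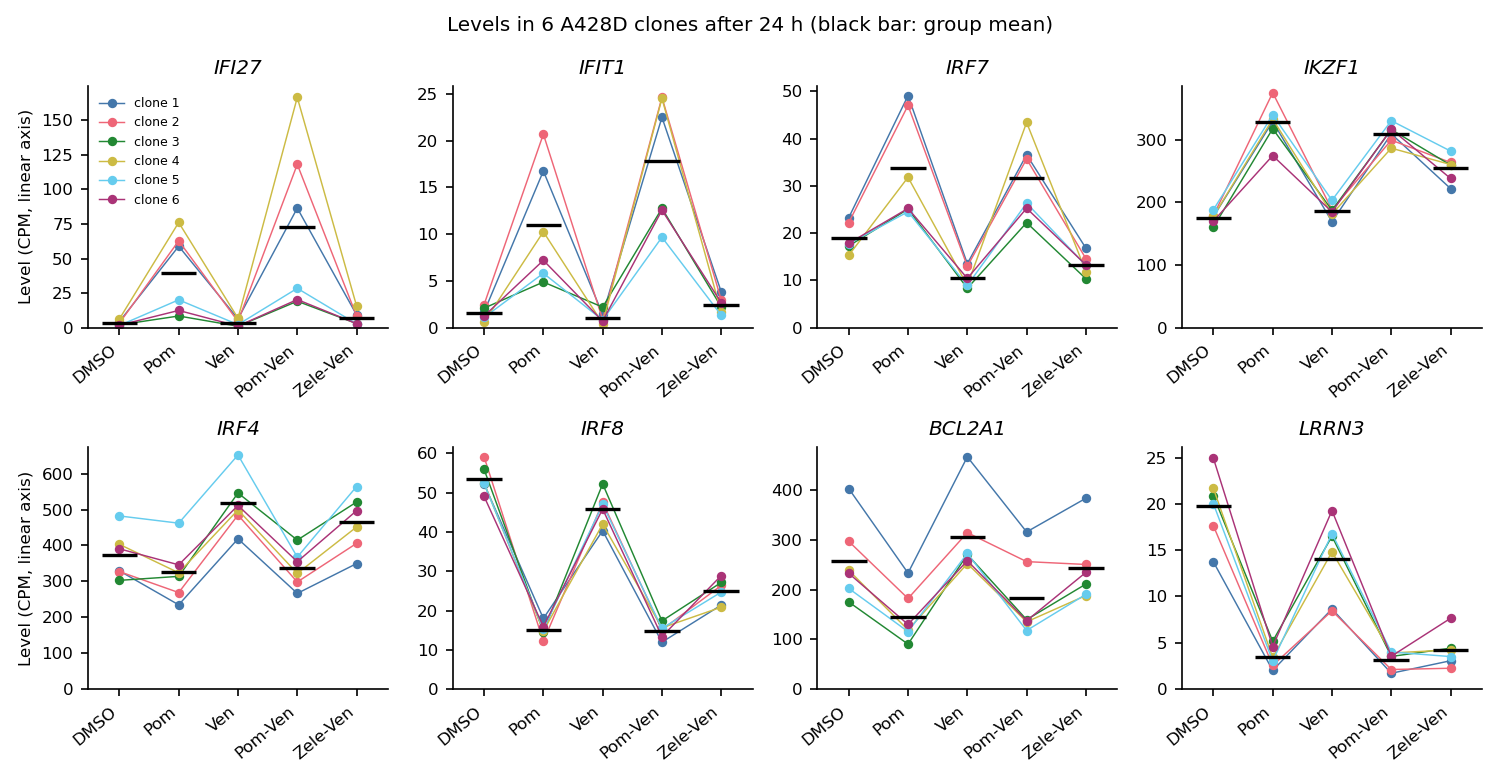
Level in CPM on a linear axis for 8 genes in the 6 A428D clones under DMSO, Pom, Ven, Pom-Ven and Zele-Ven; each coloured line is 1 clone and the black bar is the group mean. IFI27, IFIT1, IRF7 and IKZF1 stand higher under Pom-Ven than under Ven in every clone, and IRF4, IRF8, BCL2A1 and LRRN3 lower.

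Among other genes that rose most, IGLC7, an immunoglobulin lambda constant gene, ran from 6.84 to 21.4 CPM under Ven and from 42.5 to 188 CPM under Pom-Ven (log2 3.03 ± 0.15), but lambda constant genes are near-identical copies and its counts are uncertain. P2RY6, a receptor for UDP, rose by log2 2.97 and RASSF4, of the Ras association domain family, by 2.67, from a mean of 15.3 to 94.9 CPM. RASSF4 overlaps DEPP1 on the opposite strand and COSMOC overlaps ELP2, and the strand setting of the counting was not given. Some of the genes that fell most overlap others too. Among them, LRRN3 overlaps IMMP2L and COL9A3 overlaps TCFL5 on the opposite strand, and LOXL2 overlaps ENTPD4 on the same strand.

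Of 19 costimulatory and checkpoint genes tested, which encode surface molecules that regulate lymphocytes, 7 rose and 3 fell, beside 8.72% higher and 7.53% lower among all genes. VSIR, which encodes the inhibitory receptor VISTA, ran from 0.719 to 2.37 CPM under Ven and from 5.31 to 14.4 CPM under Pom-Ven, log2 2.65 ± 0.20 (adjusted p = 9.5e-20). CD274, which encodes PD-L1, ran from 7.06 to 11.02 CPM and from 17.1 to 22.1 CPM, log2 1.02 ± 0.12 (adjusted p = 1.9e-10), and neither gene's groups overlapped. CD86, a costimulatory ligand, rose by log2 0.60. The BAFF receptors TNFRSF13B (TACI; log2 -0.98) and TNFRSF13C (-0.52) fell, as did the costimulatory ligand ICOSLG (-1.03).

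IRF4, the factor that drives the activated B cell state, ran from 418 to 652 CPM under Ven (median 505) and from 267 to 415 CPM under Pom-Ven (median 338). Every Pom-Ven library lay below every Ven library, and the change was 1.53-fold lower (log2 -0.61 ± 0.08, adjusted p = 8.8e-09). Of the 24 plasma cell genes, 9 fell and 3 rose, beside 8.72% higher and 7.53% lower among all genes, with a median log2 change of -0.26. TNFRSF17, which encodes BCMA (log2 -1.07), JCHAIN, of polymeric antibody (-0.73), SEC11C, of the signal peptidase (-0.45), and PRDM1, the plasma cell master regulator (-0.32), were among the 9. The 3 that rose were ELL2 (log2 0.51), PDIA6 (0.44) and HSPA5 (0.30), and the last 2 are chaperones of the endoplasmic reticulum. JCHAIN also differed between clones: clone 1 had 156 CPM under Ven, and the other 5 clones had 17.7 to 42.9 CPM.

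IRF8, a B cell and myeloid factor that partners PU.1, fell in a narrow range, from 40.3 to 52.2 CPM under Ven (median 46.4) to 11.9 to 17.4 CPM under Pom-Ven (median 15.3). The change was 3.07-fold lower (log2 -1.62 ± 0.10, adjusted p = 1.2e-23) and no clone overlapped. SPIC, of the same ETS family as PU.1, fell by log2 1.65 ± 0.12 while SPI1, which encodes PU.1, rose by 0.60. SPIC ran from 5.88 to 34.4 CPM under Ven and from 1.41 to 12.1 CPM under Pom-Ven, and the ranges overlapped, with clones 1 and 2 low in both groups. Of 35 B cell identity and germinal centre genes, 10 fell and 6 rose, beside 8.72% higher and 7.53% lower among all genes. FCRL1, a B cell coreceptor, fell by log2 1.70, CD22 by 0.78, FOXP1 by 0.42, EBF1 by 0.30 and PAX5 by 0.29, while LMO2 (0.72), ID3 (0.68) and VPREB3 (0.88) rose.

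LRRN3, a leucine-rich repeat membrane protein gene, had the largest fall of the named genes, from 8.45 to 19.3 CPM (median 15.7) to 1.71 to 4.00 CPM (median 3.53), log2 -2.14 ± 0.15 (adjusted p = 3.3e-22). SERPINB9, an inhibitor of granzyme B, fell from a range of 72.1 to 116 CPM to 29.9 to 60.5 CPM, log2 -1.23 ± 0.08 (adjusted p = 2.4e-22). Neither gene's groups overlapped. GZMB, which encodes granzyme B and is also an NK cell marker, averaged 1010 CPM under Ven and 1076 CPM under Pom-Ven (log2 0.09, adjusted p = 0.72), and it was the NK cell marker of 6 that reached 1 CPM.

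**Figure D3:**
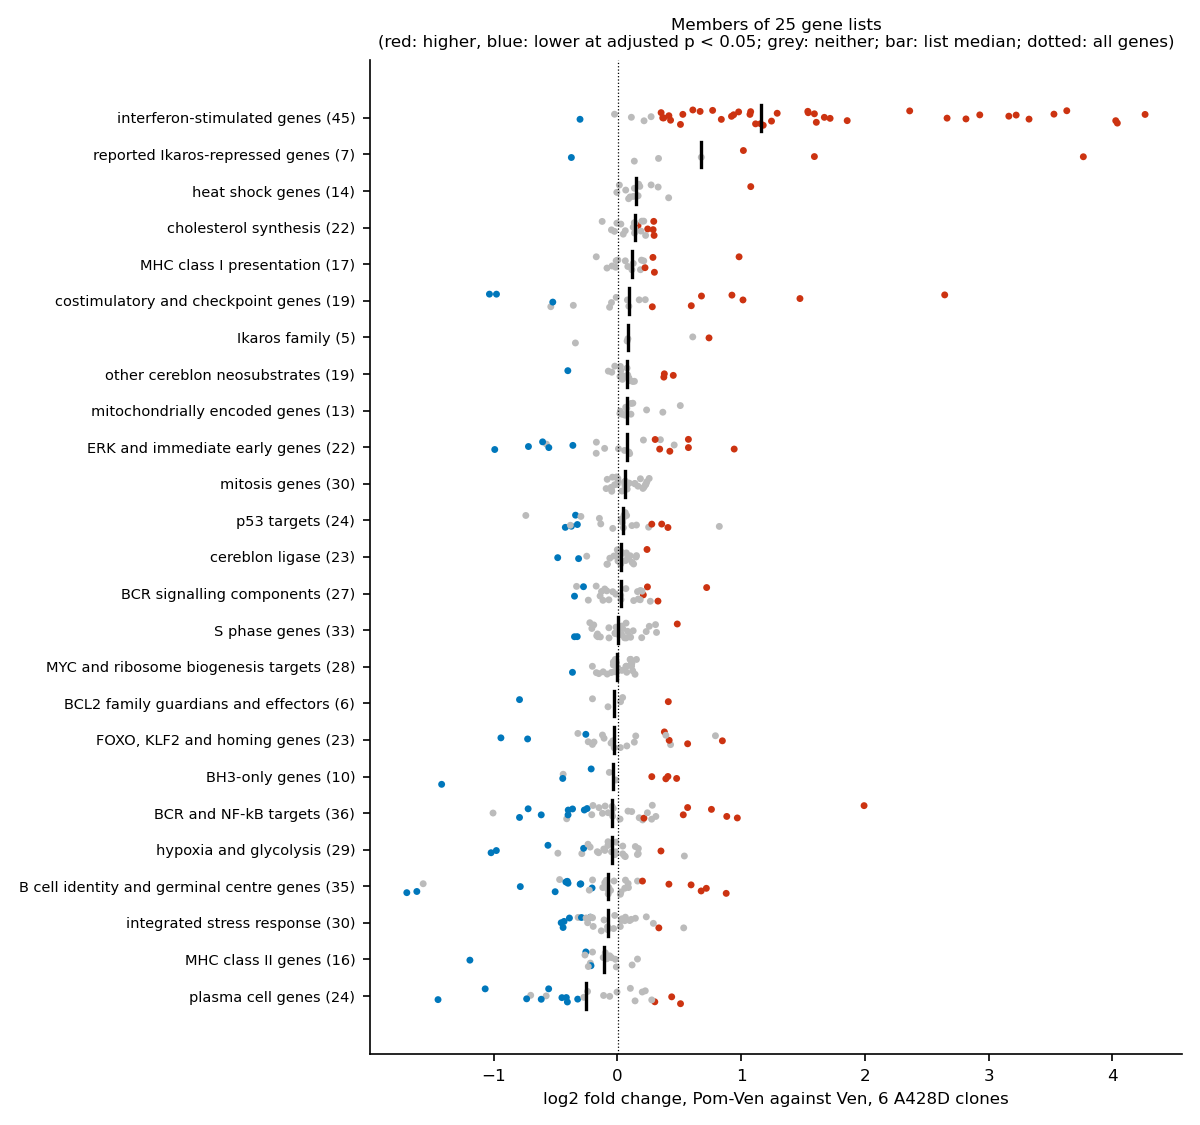
Log2 fold change (Pom-Ven against Ven, 6 A428D clones) of each tested member of 25 gene lists, with the number tested in brackets; red and blue points passed the test higher and lower, grey points did not, and black bars are list medians. The interferon-stimulated genes have the highest median, 1.16, and the plasma cell genes the lowest, -0.26.

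The BCL2 family bears on venetoclax directly. BCL2, the drug's target, had 37.6 ± 3.46 CPM under Ven and 32.9 ± 4.97 CPM under Pom-Ven (log2 -0.20, adjusted p = 0.092). It was lower in 6 of 6 clones, as were 9.47% of all genes. A fit of only the groups compared called it (adjusted p = 0.032), and the other alternative settings did not. BCL2L1 had log2 -0.07 (adjusted p = 0.78) and MCL1 0.03 (adjusted p = 0.85). BCL2A1, a survival member induced by NF-kB, fell from a mean of 306 ± 81.9 CPM to 184 ± 82.0 CPM (log2 -0.79 ± 0.10, adjusted p = 3.1e-10). It fell in 6 of 6 clones, although the ranges overlapped, since clones 1 and 2 kept 316 and 256 CPM under Pom-Ven and the lowest Ven library had 252 CPM. The effector BAK1 rose (log2 0.41).

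Of 10 BH3-only genes, whose products oppose the survival members, 4 rose and 3 fell, beside 8.72% higher and 7.53% lower among all genes. BMF (log2 0.48), BBC3, which encodes PUMA (0.41), BID (0.39) and PMAIP1, which encodes NOXA (0.28), rose. HRK fell from 7.12 to 18.8 CPM (median 10.3) to 2.06 to 11.01 CPM (median 3.29), log2 -1.42 ± 0.17 (adjusted p = 7.0e-11), and BNIP3L (-0.44) and BCL2L11, which encodes BIM (-0.21), fell as well. BCL2L11 lost its call without the clone block (adjusted p = 0.10) and with no expression filter (adjusted p = 0.062).

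NF-kB and B cell receptor targets moved both ways, 7 higher and 8 lower of 36, beside 8.72% higher and 7.53% lower among all genes. Their median log2 change was -0.04. The NF-kB subunits NFKB1 (log2 -0.72), NFKB2 (-0.40), REL (-0.27) and RELB (-0.24) fell. SLAMF1, a lymphocyte adhesion receptor, rose by log2 1.99 from a range of 2.30 to 9.91 CPM to 10.9 to 33.0 CPM, and CCND2, which encodes cyclin D2, rose by 0.88 from a mean of 139 to 256 CPM. The cytokine IL10 rose by 0.76 and TNF by 0.53. Among 22 ERK and immediate early genes, JUN (log2 0.57), SPRED1 (0.57), JUNB (0.34) and NR4A2 (0.94) were among 6 that rose, and PHLDA1 (-0.55), DUSP2 (-0.36) and NR4A1 (-0.99) were among 5 that fell. Of 27 components of B cell receptor signalling, FCGR2B (0.72), SYK (0.33), PIK3CD (0.24) and PTPRC (0.21) rose and BLNK (-0.27) and DAPP1 (-0.35) fell. The same 8.72% and 7.53% of all genes stand beside the counts of the ERK list and of these components, 4 higher and 2 lower.

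MYC had log2 -0.17 ± 0.11 (adjusted p = 0.37) and was lower in 6 of 6 clones, as were 9.47% of all genes. A fit of only the groups compared called MYC (adjusted p = 0.011), and the other alternative settings did not. Separately, 1 of 28 MYC and ribosome biogenesis targets passed, ODC1, of polyamine synthesis (-0.36), beside 16.3% of all genes. Of 33 S phase genes, TK1 rose (log2 0.48) and POLE (-0.35) and E2F1 (-0.32) fell, no more than the 8.72% and 7.53% of all genes. Also, 0 of 30 mitosis genes passed by edgeR or DESeq2 (4 and 2 had an unadjusted p under 0.05). Of 24 p53 targets, 3 rose and 4 fell, beside 8.72% higher and 7.53% lower among all genes. CDKN1A (log2 0.36), the inhibitor of cyclin-dependent kinases, was among those that rose. In the integrated stress response, 6 of 30 genes fell and SLC38A2 rose (0.34), beside the same shares of all genes, with a median of -0.08. SLC7A5, an amino acid transporter (-0.45), PSAT1 of serine synthesis (-0.39) and ASNS of asparagine synthesis (-0.43) were among those that fell.

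In metabolism, 5 of 22 cholesterol synthesis genes rose by small amounts, of which LSS (log2 0.30) was the largest. Of 29 hypoxia and glycolysis genes, 4 fell and 1 rose. Both lists stand beside 8.72% higher and 7.53% lower among all genes. PFKFB3, an activator of glycolysis, ran from 19.8 to 38.1 CPM under Ven and from 8.63 to 18.6 CPM under Pom-Ven, log2 -1.02 ± 0.11 (adjusted p = 8.4e-13), with no overlap. HSPB1, a small heat shock protein gene, was the member of 14 heat shock genes that rose, from 136 to 237 CPM to 309 to 481 CPM (log2 1.08 ± 0.22, adjusted p = 0.00013). As a count, 1 of 14 is close to the 8.72% of all genes. Of 17 genes of MHC class I presentation, HLA-F (log2 0.98), CALR (0.30), TAP1 (0.29) and HLA-E (0.22) rose, and of 16 class II genes HLA-DOB (-1.19), CIITA (-0.25) and HLA-DQA1 (-0.21) fell. These are 4 higher of 17 and 3 lower of 16, beside the same shares of all genes. Of 23 FOXO, KLF2 and homing genes 4 rose and 3 fell, beside 8.72% higher and 7.53% lower among all genes: TSC22D3 (log2 0.85), CCR7 (0.57), GPR183 (0.42) and CXCR4 (0.38) rose, and CCNG2, an atypical cyclin gene (-0.94), IRS2 (-0.72) and KLF2 (-0.25) fell. CCNG2 had the smallest adjusted p of the 3 that fell (2.6e-07), and its groups did not overlap.

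The comparison with WT clones asks whether the change that pomalidomide makes on venetoclax depends on A428D, and it shares no library with the A428D comparison. In the 5 WT clones 2572 genes passed (17.2%), 1426 higher (9.53%) and 1146 lower (7.66%). Of the genes that rose in A428D clones, 927 (71.0%) also rose in WT clones, which is 65.0% of those that rose there. Of the genes that fell, 664 (58.9%) also fell in WT clones, 57.9% of those that fell there, and 97.4% of all genes called in A428D clones had the same sign. Across the 14962 genes Pearson's r of the 2 sets of log2 changes was 0.77 and Spearman's rho 0.64; genes are not independent replicates. IFI27 rose by log2 4.09 in WT clones, IFIT1 by 4.38, IRF7 by 1.51 and IKZF1 by 0.81, and IRF4 fell by 0.74 and IRF8 by 1.73. The 45 interferon-stimulated genes had 40 higher and 0 lower there, with a median of 1.05.

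The difference between genotypes, tested as an interaction, passed for 5 genes (0.0334%), 2 more positive (0.0134%) and 3 more negative (0.0201%) in A428D clones, and 787 genes had an unadjusted p under 0.05. PFKFB3 fell in A428D clones but stood at 12.3 ± 0.856 CPM under Ven and 11.9 ± 2.05 CPM under Pom-Ven in WT clones (n = 5; difference -0.97, adjusted p = 0.0029). CAV1, which encodes caveolin 1, had log2 -0.07 in A428D clones and -0.94 in WT clones (difference 0.87, adjusted p = 0.0029), and TESC, a calcium-binding protein gene, had 0.63 and -0.16 (difference 0.79, adjusted p = 0.022). TNFRSF11A, which encodes the receptor RANK, had -0.33 and 1.34 (difference -1.67, adjusted p = 0.0050), from a mean of 1.599 to 4.13 CPM in WT clones. IL4R, the interleukin 4 receptor, fell by 0.33 in A428D clones and rose by 0.42 in WT clones (difference -0.75, adjusted p = 0.022) and was called in opposite directions in the 2 genotypes. By edgeR 0 genes passed without the clone block (285 with an unadjusted p under 0.05) and DESeq2 with the block called 5, and the edgeR count was 2 without A428D clone 6, 1 without WT clone 1 and 3 without WT clone 5. Of the 45 interferon-stimulated genes 0 passed this test by edgeR or DESeq2, and 3 had an unadjusted p under 0.05 by either. The integrated stress response list had 15 lower of 30 in WT clones (median -0.32) and 6 lower in A428D clones (-0.08). Of these 30 genes 0 passed the interaction by edgeR or DESeq2 (10 and 11 with an unadjusted p under 0.05). Their difference was above 0 in 29 of 30, and that of S phase genes in 30 of 33 (0 passed by edgeR). Members of a list are not independent.

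**Figure D4:**
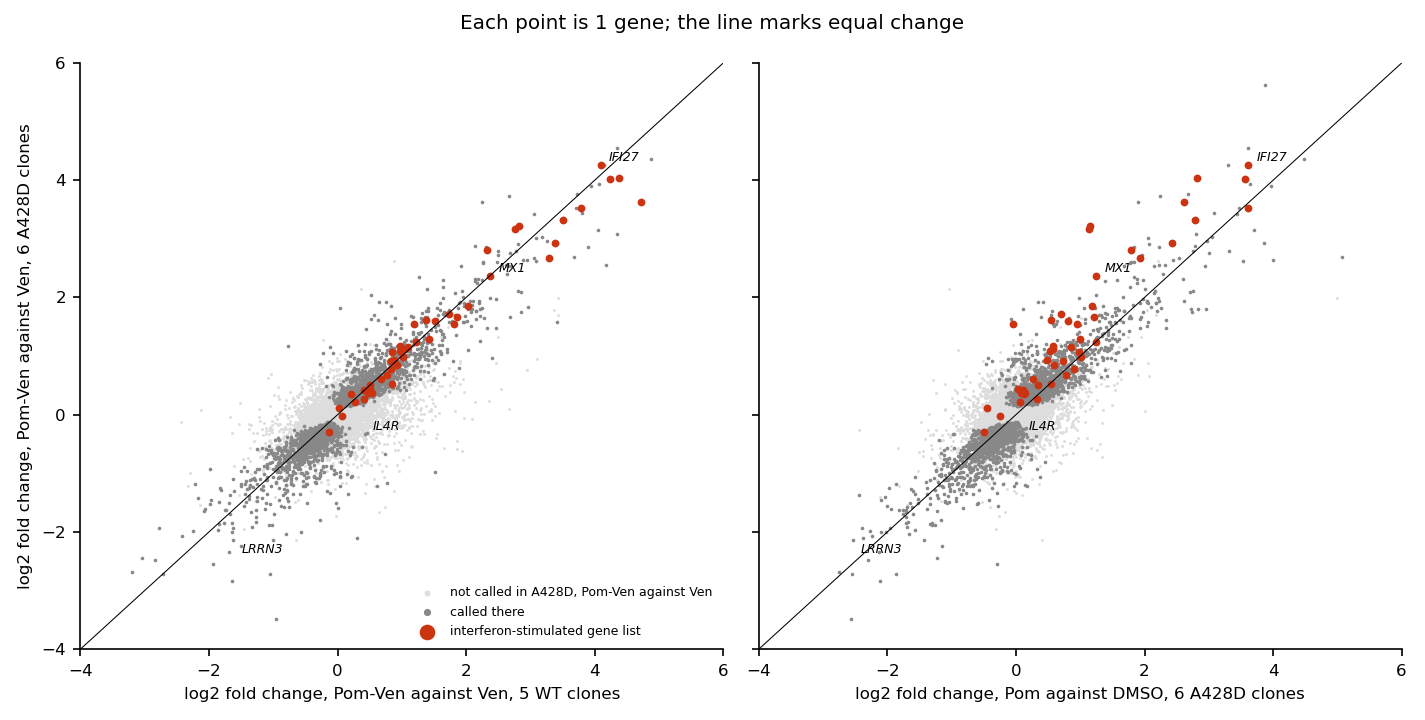
Log2 fold change for Pom-Ven against Ven in 6 A428D clones (vertical axis) against the same contrast in 5 WT clones (left) and against Pom over DMSO in A428D clones (right); each point is 1 gene, dark grey points were called in A428D clones under Pom-Ven, and red points are interferon-stimulated genes. Of the genes called in A428D clones under Pom-Ven, 97.4% have the same sign on the left and 94.3% on the right; 3 genes in the left panel and 2 in the right fall outside the axes.

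Pomalidomide without venetoclax was compared with DMSO in the same 6 A428D clones, a contrast that uses the same clones but no library of the Pom-Ven comparison. It changed 2493 genes (16.7%), 1305 higher (8.72%) and 1188 lower (7.94%). Of the genes that rose on venetoclax, 840 (64.4%) also rose without it, 64.4% of those that rose there, and of those that fell 666 (59.1%) also fell, 56.1% of those that fell there. The sign was shared by 94.3% of genes called on venetoclax, and r across genes was 0.75. Interferon-stimulated genes were 32 higher and 3 lower of 45 without venetoclax, with a median of 0.78, and IFI27 rose by log2 3.61. IRF4 had log2 -0.21 (adjusted p = 0.071) without venetoclax and -0.61 with it, but the difference of -0.40 did not pass (adjusted p = 0.21). The integrated stress response list had 11 higher and 1 lower without venetoclax, and 15 of 22 cholesterol synthesis genes rose there against 5 on venetoclax. In the tested difference 0 of 30 stress response genes passed by edgeR and 0 by DESeq2 (15 and 17 with an unadjusted p under 0.05). Of 22 cholesterol genes 0 passed by edgeR and 0 by DESeq2 (3 and 5). Few genes of any kind passed by edgeR, 25 of 14962, and 1203 had an unadjusted p under 0.05. The difference was above 0 in 4 of the 30 stress response genes (median -0.29) and 2 of the 22 cholesterol genes (-0.08). The median over all genes was 0.01.

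The difference between the response with and without venetoclax passed for 25 genes (0.167%), 19 higher (0.127%) and 6 lower (0.0401%) on venetoclax, and with DESeq2 size factors the split was 18 and 11. Among the 19 were 5 of the 45 interferon-stimulated genes. By edgeR 25 of the 45 had an unadjusted p under 0.05, beside 1203 of all 14962 genes. The difference was above 0 in 39 of the 45, with a median of 0.45 against 0.01 for all genes. MX1 had log2 2.36 with venetoclax and 1.25 without (difference 1.11, adjusted p = 0.0014), OAS2 1.72 and 0.69 (difference 1.03, adjusted p = 6.7e-05), IFI6 2.82 and 1.78 (difference 1.03, adjusted p = 0.0062), IRF7 1.59 and 0.81 (difference 0.78, adjusted p = 0.0041) and OAS1 0.11 and -0.46 (difference 0.57, adjusted p = 0.011). IRF7 averaged 18.9 CPM under DMSO, 33.8 under Pom, 10.5 under Ven and 31.6 under Pom-Ven, and its level without pomalidomide was lower on venetoclax. MX1 averaged 20.5, 50.5, 15.99 and 84.8 CPM in the same order, lower under Ven than under DMSO and higher under Pom-Ven than under Pom. Over the 45 genes the mean under Ven was below that under DMSO in 32, and the mean under Pom-Ven was below that under Pom in 11. CXCR4, the receptor for the homing chemokine CXCL12, had log2 0.38 with venetoclax and -0.04 without (difference 0.42, adjusted p = 0.011). ENDOG, a mitochondrial nuclease gene, rose in both but less on venetoclax, 0.64 against 1.32 (difference -0.68, adjusted p = 0.011).

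The 25 calls depended on the fit and on single clones. By edgeR 0 genes passed without the clone block (501 with an unadjusted p under 0.05) or in a fit of the 4 groups alone (1265 with an unadjusted p under 0.05), DESeq2 called 38, and leaving out clone 1, 2, 3, 4, 5 or 6 gave 32, 3, 8, 4, 7 or 15 genes, of which 22, 3, 6, 4, 7 or 14 were among the 25. MX1 and OAS2 kept their calls without each clone in turn, with differences between 0.87 and 1.23 over all settings, and lost them in those 2 fits.

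Zelebrudomide, a BTK degrader that also binds cereblon and acts on IKZF1 and IKZF3, was given with venetoclax to the same A428D clones, which allows a direct contrast of Pom-Ven with Zele-Ven at unstated doses. It passed for 597 genes (3.99%), 388 higher (2.59%) and 209 lower (1.4%) under Pom-Ven. Of the 45 interferon-stimulated genes, 41 were higher and 0 lower under Pom-Ven, with a median difference of 0.89 on the log2 scale, and the mean was higher in 45 of 45. IFI27 averaged 73.2 CPM under Pom-Ven and 6.93 CPM under Zele-Ven (difference 3.32 ± 0.15, adjusted p = 1.1e-28), and Ven alone stood at 3.60 CPM. IKZF1 mRNA was higher under Pom-Ven by 0.29 ± 0.05 (adjusted p = 5.1e-05), with means of 310, 255 and 186 CPM under Pom-Ven, Zele-Ven and Ven. IRF4 was lower under Pom-Ven by log2 0.45 (337 against 465 CPM, adjusted p = 7.9e-05) and IRF8 by 0.73 (14.8 against 24.9 CPM, adjusted p = 7.5e-07). LRRN3 had a difference of -0.39 that did not pass (adjusted p = 0.35), at 3.13 and 4.18 CPM against 14.1 CPM under Ven.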

How the data were processed

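Poly(A) RNA of TMD8 clones was sequenced from transcript 3' ends, and the authors deposited 1 table of estimated counts, unscaled, with 8.76% of values not whole. Per the submitters' processing notes, the build was GRCh38 and the tools, listed with no role or order, included Subread 2.1.1, featureCounts, STAR 2.7.11, fastp 0.24.0, edgeR and SAMtools 1.22.1. The annotation release, the strand setting and how reads shared by features were divided are not given in the sources used here, so overlapping and duplicated genes are uncertain.

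The estimated counts deposited by the authors were rounded to whole numbers (total changed by -0.00678%), and 92 spike-in entries were left out. All 88 libraries of the 24 h set, 8 conditions in 11 clones, entered 1 edgeR 4.0.16 quasi-likelihood fit (R 4.3.3) with TMM scaling, filterByExpr (minimum count 10, minimum total 15), robust dispersion, a term for each group and a block for the clone. P-values were adjusted by Benjamini-Hochberg over 14962 genes, with a threshold of 0.05. Levels are TMM-scaled CPM, and paired differences per clone used log2 CPM with a prior count of 2. The interactions were contrasts of the same fit.

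Conditions were paired by clone, as the labels number the clones. Over the 500 most variable genes, deviations of Pom-Ven and Ven libraries of the same clone correlated at 0.62 to 0.85, and 12 of 12 libraries were nearest to their own clone. Each clone gave 1 culture per condition, so p-values measure the spread between these cultures. Data were also simulated for all 88 libraries, with changes put only into the A428D Pom-Ven group and no differences between clones. There the full fit, with 14512 genes, recovered 94.0% of 2-fold rises and 88.0% of 2-fold falls, and 66.0% and 62.0% of 1.5-fold changes. Real clones differ, so these rates need not hold for them. Over all 100 libraries the depth was 1476876 to 12502216 reads.

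Named genes were a panel of drug targets and survival genes, the 14 with the largest change each way among called genes that moved alike in 6 of 6 clones and averaged at least 5 CPM, up to 4 called members per list by adjusted p, and up to 6 genes each way per difference. Further list members were named after their values were seen. The members and lists were chosen with earlier results of these data known. Alternatives were no clone block, fewer libraries in the fit, DESeq2 size factors, the DESeq2 1.42.0 test, no filter, no rounding and leaving out each clone. The promoter windows are RefSeq's, on GRCh38.p14, and were matched by symbol. Columns of other series numbered 0.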

Additional observations from a re-analysis of the deposited data

Results flagged for a closer look

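Among 40 genes checked for a clone far from the others, 2 were found, where chance gives about 1 in 20. The paired log2 change of CRBN was -0.75 in clone 1, and the other 5 clones lay between -0.27 and 0.01. That of IRF7 was 2.25 in clone 4, and the others lay between 1.25 and 1.53.

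The response to pomalidomide on venetoclax differed between A428D and WT clones, by the interaction term, for CAV1 (log2 difference 0.87), TESC (0.79), TNFRSF11A (-1.67), PFKFB3 (-0.97) and IL4R (-0.75).

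The response differed with and without venetoclax in A428D clones, by the interaction term, for MX1 (log2 difference 1.11), IFI6 (1.03), LINC02574 (1.03), OAS2 (1.03), SSTR2, a somatostatin receptor gene (0.87), and H3C8, a histone gene (0.87), all higher on venetoclax. It was lower on venetoclax for GJC1, a gap junction gene (-0.89), INAFM2 (-0.76), GBE1, of glycogen branching (-0.69), ENDOG (-0.68) and LINC03040 (-0.67). Counts of LINC02574 and IFI6 cannot be told apart.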

How the results depend on the processing

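The 28 genes named by size kept their direction and their call in 364 of 364 alternative values, with adjusted p-values up to 0.0127. They were picked from these same data for being called, for moving alike in every clone and for the largest changes. Keeping direction and call was therefore favoured by that choice, above all when a clone was left out. The count is no independent test and does not speak for other genes. Without the replicate block 1183 genes were called for pomalidomide on venetoclax in A428D clones in place of 2432, 1259 in WT clones in place of 2572, 1298 for pomalidomide against DMSO in place of 2493, 133 against zelebrudomide in place of 597, and 0 for both interactions. Of 129 named genes, 36 lost their call without the block, and the other 93, some of them not called in either fit, stayed on the same side of the threshold. With only the groups compared, the counts were 12 for the genotype difference, 0 for the difference with and without venetoclax and 907 against zelebrudomide. With no expression filter they were 40 for the genotype difference and 61 for the difference with and without venetoclax. The latter count was 53 with only A428D libraries (22 higher, 31 lower) and 38 with the DESeq2 test (21 higher, 17 lower), so its split between directions depended on the fit.

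Leaving out 1 clone at a time gave 1933 to 2194 genes for the main comparison, 1 to 6 for the genotype difference and 3 to 32 for the difference with and without venetoclax. The difference in mitochondrial share ran from -0.0109 to 0.275 percentage points, and below 0 without clone 3 or clone 5 (-0.00142). The change of BTK, which was not called, ran from -0.012 (without clone 5) to 0.054 (without clone 6) and was -0.003 without clone 1. With only the groups compared, MYC (log2 -0.18) and BCL2 (-0.20) passed, and they did so in no other setting. The cause of these shifts was not tested. At depths of 5813034 to 8253352 reads, 1 CPM is few reads, which limits genes near that level.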
